A study of Mus musculus with 2 samples.

Results

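Marcks and Marcksl1 are the mouse genes for the myristoylated alanine-rich C-kinase substrate and its smaller relative. They are 2 of 33757 features in a table of read counts from single fibroblasts, and their rows were taken by gene symbol. The pair was chosen because the level of Marcksl1 decreases from the dimmest to the brightest gate of a circadian fluorescent reporter. That trend, and the matching one of Marcks, are therefore described here without a test. Both genes were tested between cells of a gate ranked by cell cycle scores or by the clock transcripts Dbp and Arntl. The choice did not use these splits, though members and lists were chosen with earlier results of these data known. Correlations with single genes are described without a test.

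Both proteins carry a fatty acid at the amino terminus and a short basic stretch in the middle that together hold them on the inner face of the plasma membrane. The basic stretch binds acidic lipids such as PIP2 and also actin filaments. Protein kinase C phosphorylates serines in it and calcium-loaded calmodulin binds it, and either releases the protein from the membrane and frees PIP2 for phospholipase C and for regulators of the actin cortex. In fibroblasts the 2 proteins are known from work on cell spreading, motility and endocytosis.

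The cells were NIH3T3-Rev-VNP1-H2B-iRFP fibroblasts, a derivative of the immortalised mouse embryo line NIH3T3. All of them carry a Venus reporter of Nr1d1, whose protein REV-ERB alpha represses Arntl in the circadian feedback loop, and a near-infrared iRFP fused to histone H2B. Cells were grown without synchronization to 95% confluency, which took about 5 days, and were sorted singly by FACS into 384-well plates. Each well was then taken through FLASH-seq, which reads transcripts over their whole length. There were 2 samples, plate 1 and plate 2, and no other genotype, treatment or time point. Each plate held 4 Venus gates of 96 cells, numbered here from 1 (dimmest) to 4 (brightest). Plate 1 held only the high iRFP sort and plate 2 only the low iRFP sort, so plate and iRFP sort cannot be told apart. On both plates the gates also filled the same well columns, gate 1 the first 6 and gate 4 the last 6, so gate and column position cannot be told apart between gates. The labels do not say whether the plates came from separate cultures or whether the line is 1 clone, so every spread given here may be technical.

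The filter kept 383 cells of plate 1 and 379 of plate 2, with median totals of 835842 and 852658 counts. Summed over the cells of a gate, totals lay between 76042157 and 86612194 counts. Most fibroblast markers were abundant in every gate: Col1a1 stood at 6756 to 9320 CPM (counts scaled to a total of 1000000) and Col3a1 at 782 to 1724 CPM. Col1a2, Vim, Fn1 and S100a4 lay between 557 and 6072 CPM. Pdgfrb stood lower at 70.9 to 118 CPM, and Thy1 at 31.1 to 92.0 CPM with a read in 51.8% of cells. Of the markers of other cell types, Epcam, Ptprc, Cd3e and Tubb3 reached at most 0.0523 CPM in any gate, Cd68, Pecam1 and Cdh5 reached at most 0.783 CPM, and Krt14 stood at 21.4 to 40.0 CPM and Cdh1 at 3.31 to 7.25 CPM.

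The stretch of 25 codons with the most lysine and arginine codons shows how alike the 2 members are where the kinase and calmodulin act. It is given from the reference transcripts of the GENCODE annotation of GRCm38, 5′ to 3′, with serine codons in capitals.
Marcks: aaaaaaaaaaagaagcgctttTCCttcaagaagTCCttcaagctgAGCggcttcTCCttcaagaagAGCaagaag
Marcksl1: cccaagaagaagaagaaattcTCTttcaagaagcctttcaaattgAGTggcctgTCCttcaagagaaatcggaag
In Marcks it spans codons 145 to 169 of 309 and holds 12 lysine, 1 arginine and 5 serine codons. In Marcksl1 it spans codons 86 to 110 of 200 and holds 10 lysine, 2 arginine and 3 serine codons. The stretches match at 52 of 75 bases, or 69.3%, and the aligned coding sequences at 70.1%. None of the 3974 windows of 75 bases in the Marcks transcript, the length of 1 read, occurs in the Marcksl1 transcript, so whole reads of the pair can be told apart. In that annotation neither gene overlaps another gene.

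The 250 bases before the start site of Marcksl1 are shown because over whole plates its level correlated with clock and cell cycle transcripts. Sequence outside this window was not searched. They lie on the plus strand at chr4:129513331-129513580 in RefSeq's GRCm38.p6, a build other than the GRCm39 named for these files. Capitals mark the only match to the CCAAT box (letters CCAAT, searched on both strands, here on the opposite strand).
Marcksl1 promoter: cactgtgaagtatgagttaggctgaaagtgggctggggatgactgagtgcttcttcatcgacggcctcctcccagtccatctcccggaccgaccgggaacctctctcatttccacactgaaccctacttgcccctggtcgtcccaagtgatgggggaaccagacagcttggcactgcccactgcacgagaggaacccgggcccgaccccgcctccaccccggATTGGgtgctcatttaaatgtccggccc
The CCAAT letters occur in 33.8% of 32536 promoters of this length, and the GC content of 60.4% compares with a median of 52.4%. The letters of the E-box CACGTG, which CLOCK and BMAL1 bind, were not in this window, and 6.04% of promoters hold them. Nor were those of the D-box, TTATGTAA or TTACGTAA, to which DBP binds (0.925% of promoters), the core TAGGTCA to which REV-ERB proteins bind (2.24%), or the GC box GGGCGG (33.0%). The RefSeq promoter table used here matched Marcksl1 and not Marcks.

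Marcksl1 stood at about a 2.75-fold lower level in the brightest Venus gate than in the dimmest, and the order of the 4 gates was the same on both plates. On plate 1 its summed level was 71.6 CPM in gate 1, 62.8 CPM in gate 2, 45.9 CPM in gate 3 and 25.3 CPM in gate 4. On plate 2 the same gates gave 75.0, 63.6, 40.2 and 27.9 CPM. The 2 plates lay close together in each gate and no gate overlapped the next: means were 73.3 ± 2.4 CPM (SD, n = 2 plates), 63.2 ± 0.59, 43.1 ± 4.0 and 26.6 ± 1.8 CPM. The 95% Poisson intervals of neighbouring gates did not overlap on either plate; in gate 4 of plate 1, for example, the interval was 24.2 to 26.5 CPM on 1937 counts. These intervals cover counting error only, since reads were amplified by PCR and no molecular identifiers are stated.

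Marcks, the founding member, stood 2.13-fold lower in gate 4 than in gate 1, a smaller difference than that of Marcksl1. On plate 1 it stood at 141 CPM in gate 1, 115 CPM in gate 2, 113 CPM in gate 3 and 69.0 CPM in gate 4. On plate 2 it stood at 134, 106, 83.3 and 60.2 CPM. The plates differed most in gate 3, where the mean was 98.3 ± 21.3 CPM (SD, n = 2 plates), against 137 ± 4.5 in gate 1, 111 ± 6.3 in gate 2 and 64.6 ± 6.2 in gate 4. Gates 2 and 3 of plate 1 were the only neighbours whose Poisson intervals overlapped, and over both plates these 2 gates did not differ beyond their spread.

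**Figure D1:**
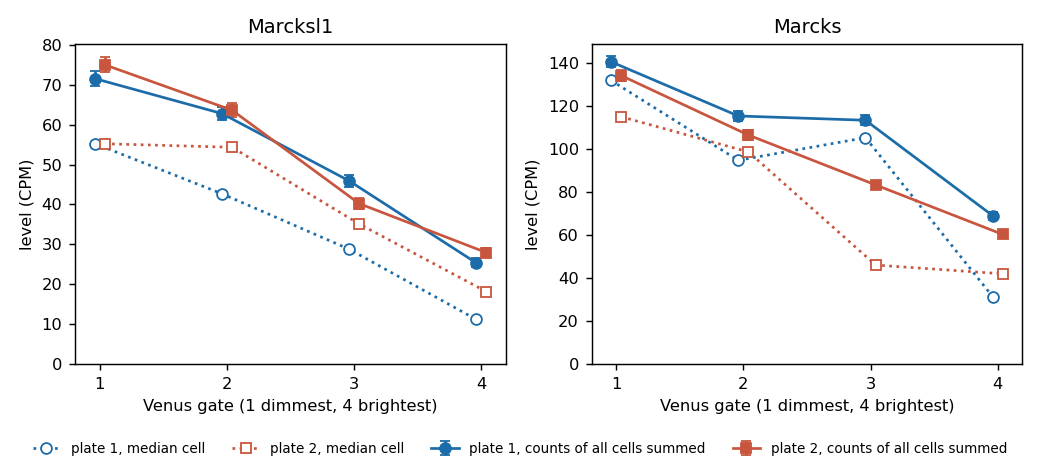
Levels of Marcksl1 (left) and Marcks (right) in CPM on linear axes, by Venus gate and plate. Filled symbols are the summed counts of the 94 to 96 cells of a gate with 95% Poisson intervals, and open symbols are the median cell; Marcksl1 stepped down at every gate on both plates, while Marcks on plate 1 stood at 115 and 113 CPM in gates 2 and 3.

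Fitted over the 8 sums with plate as a term (edgeR), the trend of Marcksl1 was -0.51 ± 0.03 (log2 per gate step, SE), with -0.52 on plate 1 and -0.50 on plate 2. That of Marcks was -0.36 ± 0.03, with -0.34 and -0.39. Among the 5253 genes whose mean log2 CPM reached 5, Marcksl1 had the 3rd lowest trend and Marcks the 12th lowest. Without that cut, 1.98% of all genes tested had a lower trend than Marcksl1 and 3.36% a lower one than Marcks. Of 18430 genes tested, 15.4% had an adjusted p below 0.05 along the gates and 8.64% did so with a lower level toward bright Venus. The balance of directions turned with the scaling: 44.0% of the 2843 called genes were higher toward bright Venus with TMM, and 57.8% of 2727 without it. Since the pair was chosen on this contrast, nothing is read from its place in that list. For scale, Arntl (Bmal1, the activator whose transcript peaks opposite to Nr1d1) had a trend of -0.72 ± 0.03 and Dbp, a clock-driven D-box activator, one of 0.74 ± 0.02.

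In single cells Marcksl1 was detected in most cells of every gate, and the typical level differed between gates. The median cell of plate 1 held 55.3 CPM in gate 1 and 11.2 CPM in gate 4, and that of plate 2 held 55.2 and 18.1 CPM. A read of Marcksl1 was present in 94 of 95 cells in gate 1 and 86 of 96 in gate 4 of plate 1, and in 95 of 95 and 91 of 94 on plate 2. Cells above 100 CPM numbered 28 in gate 1 and 5 in gate 4 of plate 1, and 31 and 4 on plate 2. The remaining Marcksl1 of the brightest gate was concentrated in few cells: the 10% of cells with the highest level held 51.4% of it on plate 1 and 36.9% on plate 2, against 26.2% and 26.9% in gate 1. A single cell supplied 12.2% of the Marcksl1 counts of gate 4 on plate 1.

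Marcks spread in the same way. Its median cell held 132, 94.7, 105 and 31.4 CPM in gates 1 to 4 of plate 1, higher in gate 3 than in gate 2. On plate 2 it held 115, 98.6, 46.0 and 41.9 CPM. The coefficient of variation across cells was 0.593 in gate 1 and 1.31 in gate 4 of plate 1, and 0.654 and 1.06 on plate 2. In gate 4, 23 cells of plate 1 and 17 of plate 2 still held over 100 CPM, against 57 and 55 in gate 1, so high cells remained in every gate while the median cell moved.

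**Figure D2:**
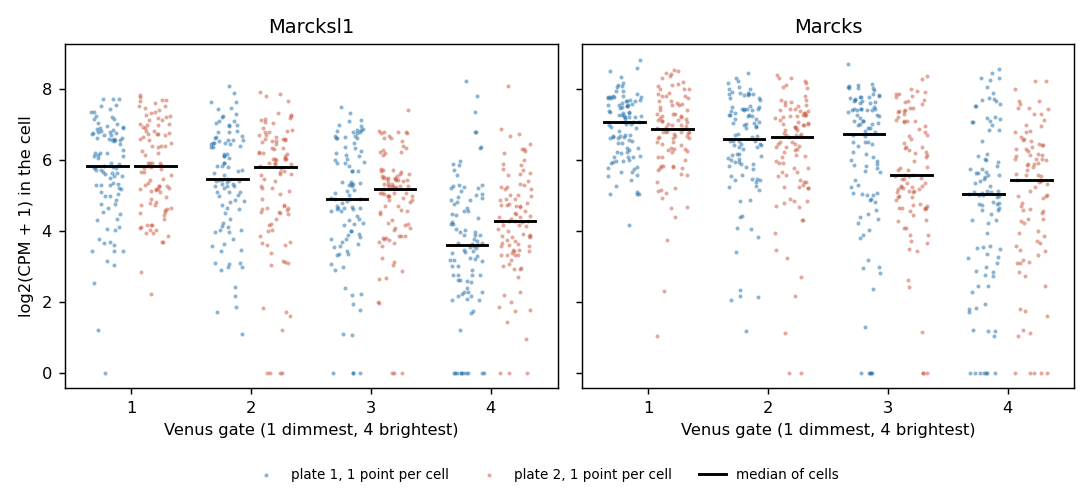
Level of Marcksl1 (left) and Marcks (right) in each of the 762 cells as log2(CPM + 1), by Venus gate and plate, with 1 point per cell and a bar at the median. Cells with no read lie at 0; the bars of Marcksl1 drop from gate 2 on, and high cells remain in gate 4.

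Per kilobase of merged exons, the gene with the lower CPM, Marcksl1, had the higher level in most gates. The coding sequences differ in GC content, 75.6% for Marcks and 62.8% for Marcksl1, and its part in the counts was not tested. Marcks has 4048 bases of merged exons and Marcksl1 1605, and the ratio of Marcks to Marcksl1 per kilobase lay between 0.664 and 1.08, above 1 only in gate 4 of plate 1. In gates 1 to 4 the ratio was 0.779, 0.728, 0.979 and 1.08 on plate 1, and 0.709, 0.664, 0.821 and 0.855 on plate 2. It was lowest in gate 2 on both plates. From gate 1 to gate 4 it rose, as the slope of Marcksl1 over all gates was the steeper one. Between the plates, which differ in iRFP sort, Marcksl1 was level at 51.5 and 51.3 CPM, and Marcks stood at 110 CPM on plate 1 and 95.6 CPM on plate 2, a ratio of 1.15 with no test possible.

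Within each plate and gate, the members were also compared between cells ranked by another measure. The cells were cut into 3 equal parts and the highest part was set against the lowest. This was done separately in the 8 blocks of plate and gate, and the 16 sums were tested by edgeR's quasi-likelihood test with the block as a term, adjusted over all genes. Ranked by recorded Venus fluorescence, the contrast nearest to the choice of the genes, the differences were -0.26 ± 0.13 (log2, SE) for Marcksl1 and -0.27 ± 0.12 for Marcks, lower in 5 of 8 and 6 of 8 blocks. With gates pooled, the median recorded Venus of the low and high parts was 3625500 and 7009400 (arbitrary units) on plate 1. On plate 2 it was 3786200 and 8221700. The parts were cut on Venus within gates, so they differ in it by construction. These values are given without a test. Ordered by well column inside the gates, slopes were -0.15 and -0.03 (log2 per 6 columns) for Marcksl1 on plates 1 and 2, and 0.11 and -0.15 for Marcks. Neighbouring gates lie 6 columns apart, and the trends per gate step of -0.52 and -0.50 for Marcksl1 and -0.34 and -0.39 for Marcks are on the same scale; the part of column position in them was not tested.

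Both members were lower in cells with more S phase transcripts. For the S phase score (the mean log2 level of 43 DNA replication genes), Marcksl1 averaged 68.2 ± 25.6 CPM (SD, n = 8 blocks) in the low-score cells and 36.1 ± 12.7 CPM in the high-score cells. Here and below, an SD over blocks includes the differences between gates and is not a spread of replicates. On plate 1 the low-score and high-score cells held 92.7 and 49.6 CPM in gate 1, 88.1 and 47.3 in gate 2, 67.2 and 33.9 in gate 3, and 42.6 and 15.3 in gate 4. On plate 2 they held 98.6 and 51.7, 80.5 and 35.2, 41.5 and 27.6, and 34.4 and 27.8 CPM. It was lower in the high-score cells of 8 of 8 blocks, with a difference of -0.93 ± 0.11 (log2, SE; adjusted p = 4.99e-05, edgeR). Marcks went from 125 ± 36.6 to 88.3 ± 27.0 CPM, also lower in 8 of 8 blocks, with a difference of -0.52 ± 0.09 (adjusted p = 0.00155, edgeR). In this split 27.9% of 13950 genes were called and 13% were called lower, so a call alone is common; 429 genes had a smaller adjusted p than Marcksl1 and 1156 a smaller one than Marcks. The median mitochondrial share of counts was 10.2% in the low-score and 8.59% in the high-score cells of plate 1, and 7.88% and 6.93% on plate 2; its part in the differences was not tested.

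The G2/M score (54 genes of mitotic entry and division) gave the same direction, but the 2 splits were not separate. Cells with a high S phase score also had the higher median G2/M score, 2.15 against 1.78 on plate 1 and 3.28 against 1.86 on plate 2. Marcksl1 averaged 65.0 ± 24.3 CPM in the low-score cells and 35.7 ± 14.8 CPM in the high-score cells (SD, n = 8 blocks), lower in 8 of 8 blocks. Its difference was -0.92 ± 0.10 (log2, SE; adjusted p = 3.83e-05, edgeR). Marcks averaged 118 ± 34.3 and 90.6 ± 22.2 CPM and was lower in 7 of 8 blocks, gate 4 of plate 2 being the exception with 61.2 against 67.6 CPM. Its difference was -0.39 ± 0.09 (adjusted p = 0.0073, edgeR), and on plate 2 alone the adjusted p was 0.0634. Of 13894 genes, 29.9% were called by this score and 14.4% were called lower in the high-score cells, 15.5% higher. The mitochondrial share again differed between the parts, at 10.1% and 8.84% on plate 1 and 8.03% and 6.88% on plate 2.

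Single cell cycle genes mostly gave the same direction as the scores. Genes of these kinds make up the scores, so this is not a separate result. Ranked within gates, Marcksl1 had Spearman correlations across cells of -0.24 and -0.37 (plates 1 and 2; 383 and 379 cells) with Mki67, a proliferation marker. They were -0.30 and -0.31 with Top2a, the DNA topoisomerase of dividing cells, and -0.20 and -0.34 with the replicative helicase subunit gene Mcm5. Those with the sliding clamp gene Pcna were -0.27 and -0.26. Correlations with the mitotic cyclin gene Ccnb1 were -0.15 and -0.29, and those with its kinase Cdk1 were closer to 0 at -0.04 and -0.14. For Marcks the values were weaker throughout, from -0.25 and -0.20 with Top2a to -0.005 and 0.06 with Cdk1. Cells of a plate share a library preparation, and these values are descriptions without a test.

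Along the Venus gates 4 of the 6 named cell cycle genes were called higher toward bright Venus by edgeR, against 6.78% of all genes tested. They were Mcm5 (0.48 ± 0.11 log2 per gate step, SE), Cdk1 (0.34 ± 0.08), Mki67 (0.27 ± 0.07) and Pcna (0.20 ± 0.04). Top2a stood at 0.33 ± 0.10 (adjusted p = 0.060) and Ccnb1 at 0.17 ± 0.09 (adjusted p = 0.296), and neither was called. On plate 2 alone Mki67 stood at 0.10 and Ccnb1 at -0.02. Levels there did not all rise from gate to gate: Cdk1 stood at 22.3, 72.2, 32.7 and 60.0 CPM in gates 1 to 4. Mcm5 and Mki67 were also lower in gate 3 than in gate 2 of plate 2, while Pcna rose at each step. Cells at or below the plate median in both scores made up 42.1%, 40.6%, 34.4% and 26.0% of gates 1 to 4 on plate 1. On plate 2 they made up 43.2%, 44.7%, 39.6% and 20.2%. In these cells alone, an alternative chosen after seeing the data, the trend was -0.44 ± 0.06 (log2 per gate step) for Marcksl1, with -0.31 on plate 1 and -0.58 on plate 2. For Marcks it was -0.30 ± 0.04, with -0.23 and -0.38. These values come from the contrast on which the pair was chosen and are a description; 3.09% of 15771 genes were called in that subset.

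Dbp and Marcksl1 stood in opposite relations across gates and within them. Across the gates Dbp stood higher toward bright Venus and Marcksl1 lower, and over whole plates their correlation across cells was -0.17 and -0.10. Ranked within gates it was 0.18 and 0.22. Ranked by Dbp, Marcksl1 averaged 43.1 ± 14.2 CPM in Dbp-low and 63.4 ± 27.3 CPM in Dbp-high cells (SD, n = 8 blocks). On plate 1 the Dbp-low and Dbp-high cells held 63.1 and 98.0 CPM in gate 1, 45.9 and 75.1 in gate 2, 36.9 and 47.5 in gate 3, and 31.1 and 26.2 in gate 4. On plate 2 they held 59.0 and 88.3, 51.4 and 88.1, 34.9 and 49.2, and 22.1 and 34.8 CPM. Dbp-high cells had more Marcksl1 in 7 of 8 blocks, with a difference of 0.51 ± 0.10 (log2, SE; adjusted p = 0.00496, edgeR), in a split where 16.5% of 13924 genes were called and 6.59% were called higher and 9.95% lower.

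Dbp-high cells also had fewer cell cycle transcripts. Mki67 stood at 56.6 CPM in Dbp-low and 12.6 CPM in Dbp-high cells of plate 1, and at 53.3 and 13.2 CPM on plate 2, and Mcm5 at 23.5 and 2.32, and 19.3 and 3.97 CPM. The median mitochondrial share was 8.996% in Dbp-low and 9.53% in Dbp-high cells of plate 1, and 6.86% and 7.84% on plate 2. Among cells low in both cycle scores the Marcksl1 difference between Dbp-high and Dbp-low cells was 0.24 ± 0.19 and was not called (adjusted p = 0.634, edgeR), in a subset with fewer cells where 0.957% of 12017 genes were called. On plate 1 alone the difference was 0.38 (adjusted p = 0.223, edgeR), and with the cells cut into 2 parts in place of 3 it was 0.36 (adjusted p = 0.057, edgeR). Marcks differed by 0.15 ± 0.13 between Dbp-high and Dbp-low cells, higher in 6 of 8 blocks, and was not called (adjusted p = 0.505, edgeR).

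**Figure D3:**
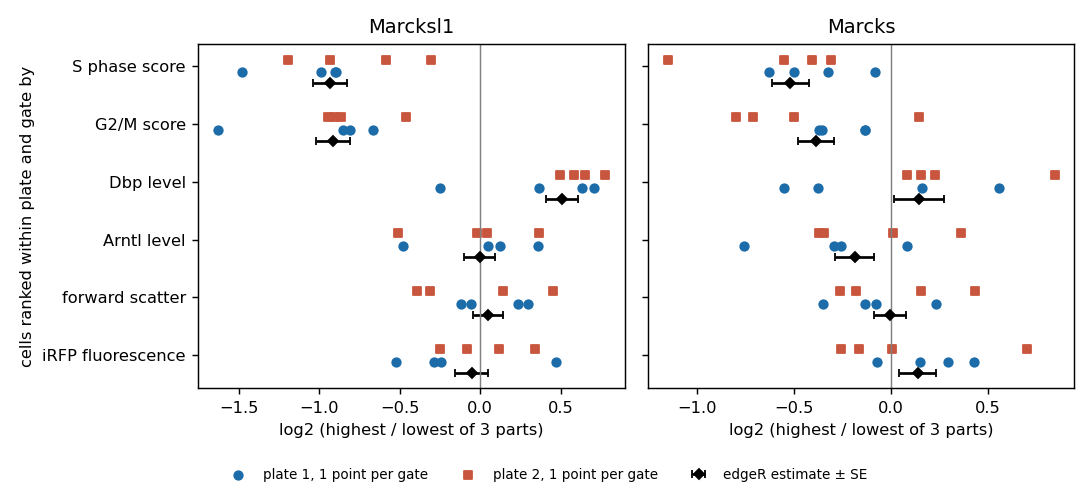
Difference of Marcksl1 (left) and Marcks (right) between the highest and lowest of 3 equal parts of the cells of a plate and gate, as log2 of the CPM ratio, for cells ranked by 6 measures. Coloured points are the 8 blocks and black diamonds the edgeR estimate with its SE; all 8 Marcksl1 blocks lie below 0 for both cell cycle scores, and 7 of 8 lie above 0 for Dbp.

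Neither member passed the test between cells ranked by Arntl within gates. Across whole plates Marcksl1 correlated with Arntl at 0.26 and 0.16, and both stood lower toward bright Venus. The values were 0.01 and -0.05 within gates. Between Arntl-high and Arntl-low cells the difference was -0.003 ± 0.10 for Marcksl1 (adjusted p = 0.998, edgeR) and -0.19 ± 0.10 for Marcks (adjusted p = 0.702, edgeR), lower in Arntl-high cells in 3 of 8 and 5 of 8 blocks. The Marcks value was -0.30 on plate 1 alone, -0.06 on plate 2 alone and -0.34 with cells thinned to 400000 counts, called in none of these. By edgeR this split called 0.0144% of 13928 genes, which is 2 genes, with 1104 at an unadjusted p below 0.05, and DESeq2 called 81. Dbp itself was lower in Arntl-high cells in 8 of 8 blocks, with a difference of -0.86 ± 0.15, and did not pass either (adjusted p = 0.177, edgeR).

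Neither member passed the test between cells ranked by forward scatter, a measure of size, or by the H2B-iRFP signal. Between the parts with high and low forward scatter the differences were 0.05 ± 0.10 for Marcksl1 and -0.003 ± 0.08 for Marcks (log2, SE; adjusted p = 0.923 and 0.994, edgeR), where edgeR called 0.00719% of 13909 genes, which is 1 gene, and DESeq2 called 125. Between those with high and low iRFP fluorescence they were -0.05 ± 0.10 and 0.14 ± 0.09 (adjusted p = 0.963 and 0.872, edgeR), and the Marcks value was 0.21 on plate 1 alone and 0.07 on plate 2 alone. There edgeR called 0% of 13929 genes, with 899 at an unadjusted p below 0.05, and DESeq2 called 24. In none of these 6 comparisons did the difference of either member pass the test of a plate interaction (adjusted p from 0.928 upward, edgeR).

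The other clock transcripts correlated negatively with the pair over whole plates, and most values were nearer 0 within gates. Over whole plates Marcksl1 correlated at -0.39 and -0.34 with Nr1d1, at -0.40 and -0.35 with the reporter transcript YFP, at -0.23 and -0.11 with Tef, another D-box activator, and at -0.16 and -0.17 with the period gene Per2. Ranked within gates the values were -0.02 and 0.03 for Nr1d1, -0.03 and 0.01 for YFP, 0.09 and 0.18 for Tef, and 0.04 and 0.03 for Per2. Marcks correlated at -0.32 and -0.37 with Nr1d1 over whole plates and at 0.01 and -0.10 within gates. The values for Nr1d2, paralog of Nr1d1, had opposite signs on the plates within gates, -0.10 and 0.10 for Marcksl1.

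**Figure D4:**
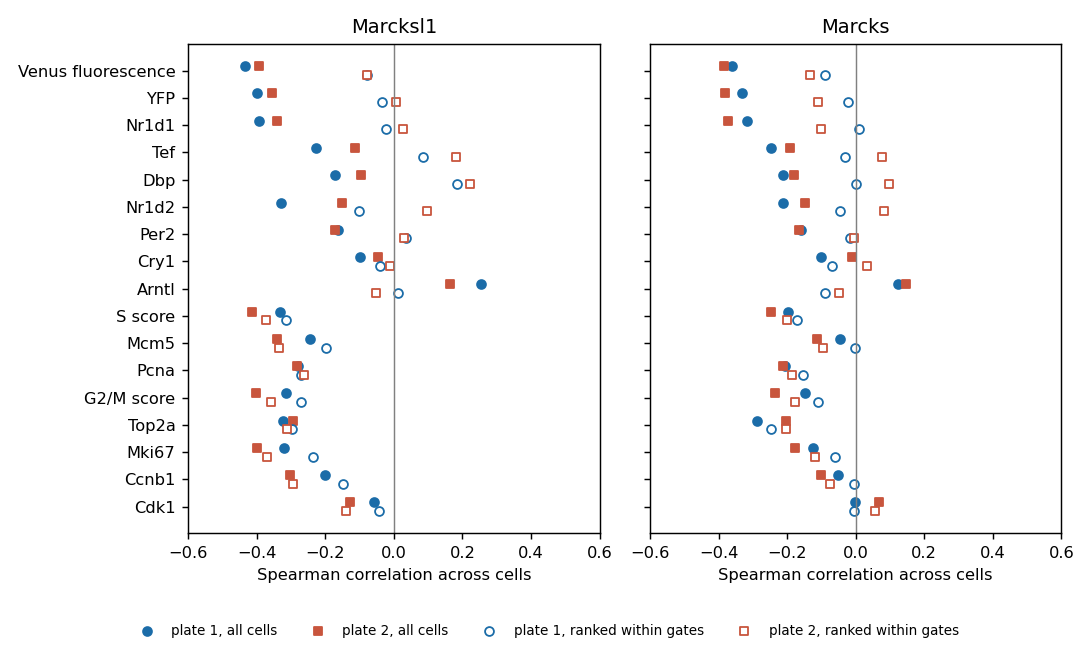
Spearman correlation across cells of Marcksl1 (left) and Marcks (right) with Venus fluorescence, clock genes, cell cycle genes and the 2 cell cycle scores. Filled symbols use all cells of a plate and open symbols cells ranked within their gate; for Marcksl1 the open symbols of clock genes lie between -0.10 and 0.10 except Dbp at 0.18 and 0.22 and Tef at 0.18 on plate 2, while those of the cell cycle scores stay between -0.27 and -0.37.

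The 2 members moved together from cell to cell. Their correlation was 0.55 and 0.53 over whole plates and 0.49 and 0.47 within gates. Of 9399 genes compared with each, Marcksl1 was the 4th most like Marcks and Marcks the 6th most like Marcksl1, by the lower of the 2 within-gate correlations. Ahead of Marcksl1 for Marcks stood Lama4, a laminin chain (0.52 and 0.48), Bgn, the matrix proteoglycan biglycan (0.55 and 0.47), and Hdac2, a histone deacetylase (0.52 and 0.47), with Ldb2 and Ttyh3 after it. For Marcksl1 the order was Ldb2, a LIM-domain cofactor (0.54 and 0.56), Mmp2, a gelatinase (0.50 and 0.53), Plscr3, Prdx2, a peroxiredoxin, and Mxd4, a MAX dimerization partner (0.48 and 0.47). Ldb2 was in both lists.

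Opposite to Marcksl1 were Cavin1, a caveolar coat protein (-0.54 and -0.59), Pkm, a pyruvate kinase (-0.55 and -0.53), Pfn1, the actin monomer binder profilin (-0.51 and -0.54), Rhoa, the GTPase of stress fibres (-0.51 and -0.49), Gapdh and Hsp90aa1. Opposite to Marcks were S100a6 (-0.48 and -0.53), Pgk1, a glycolytic kinase (-0.50 and -0.46), Taldo1, Car5b, Nqo1 and Pdha1. The share of mitochondrial counts in a cell correlated with Marcksl1 at 0.28 and 0.30 within gates and with Marcks at 0.21 and 0.07; its part in these values was not tested. The total counts of a cell correlated with neither member beyond 0.04 in size within gates.

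The machinery around the pair moved in both directions along the Venus gates. Of 38 genes listed for it, 34 were tested: 8 were called higher toward bright Venus, 7 lower and 19 were not called, against 15.4% of all genes (6.78% higher and 8.64% lower), and their median trend was 0.003 (all genes tested, 0.0005). Without TMM 14 were called, 9 of them higher (64.3%, against 53.3% of the 15 with TMM). The list was made with results of these data known, so the count is a description. Among the kinases, the protein kinase C genes Prkca (-0.13 ± 0.02) and Prkcd (-0.12 ± 0.03) fell and Rock2 (0.12 ± 0.02), a kinase gene of actomyosin contraction, rose, while Prkce, Prkch and Rock1 were not called. Among calmodulin genes, Calm3 (0.09 ± 0.02) rose and Calm2 stood at -0.01 ± 0.02.

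Of the enzymes that make PIP2, Pip5k1a fell (-0.09 ± 0.02) and 2 others were not called. Of the phospholipases C that cleave it, Plcb3 (-0.12 ± 0.02), Plcg1 (-0.11 ± 0.02) and Plcb4 (-0.72 ± 0.09) fell and none was called higher. Plcb1 (-0.22 ± 0.16), Plcd1 (0.02 ± 0.02) and Plcd3 (-0.005 ± 0.04) were not called. Plcb4 had a steeper slope than Marcksl1 but a mean of 1.08 CPM. The N-myristoyltransferase gene Nmt2 (0.07 ± 0.02) and the phosphatase scaffold gene Ppp2r1a (0.06 ± 0.01) rose. Among actin cortex genes the membrane linker gene Ezr (0.18 ± 0.03), the scaffold gene Iqgap1 (0.11 ± 0.02) and Pfn1 (0.07 ± 0.01) rose and Actg1 (-0.10 ± 0.03) fell. Basp1, whose protein also binds PIP2 through a myristoylated basic end, stood at 0.002 ± 0.04, and Gap43 at -0.04 ± 0.23 with 0.193 CPM; neither was called. Prkcb, Prkcq, Pip5k1b and Plce1 stood at or below 0.0187 CPM and were not tested. All trends here are log2 per gate step with SE, called at an adjusted p below 0.05 (edgeR). Between S phase high-score and low-score cells 13 of 32 genes of the list tested were called higher and 3 lower (14.9% and 13% of all genes), with a median of 0.14 against -0.02 for all genes.

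**Figure D5:**
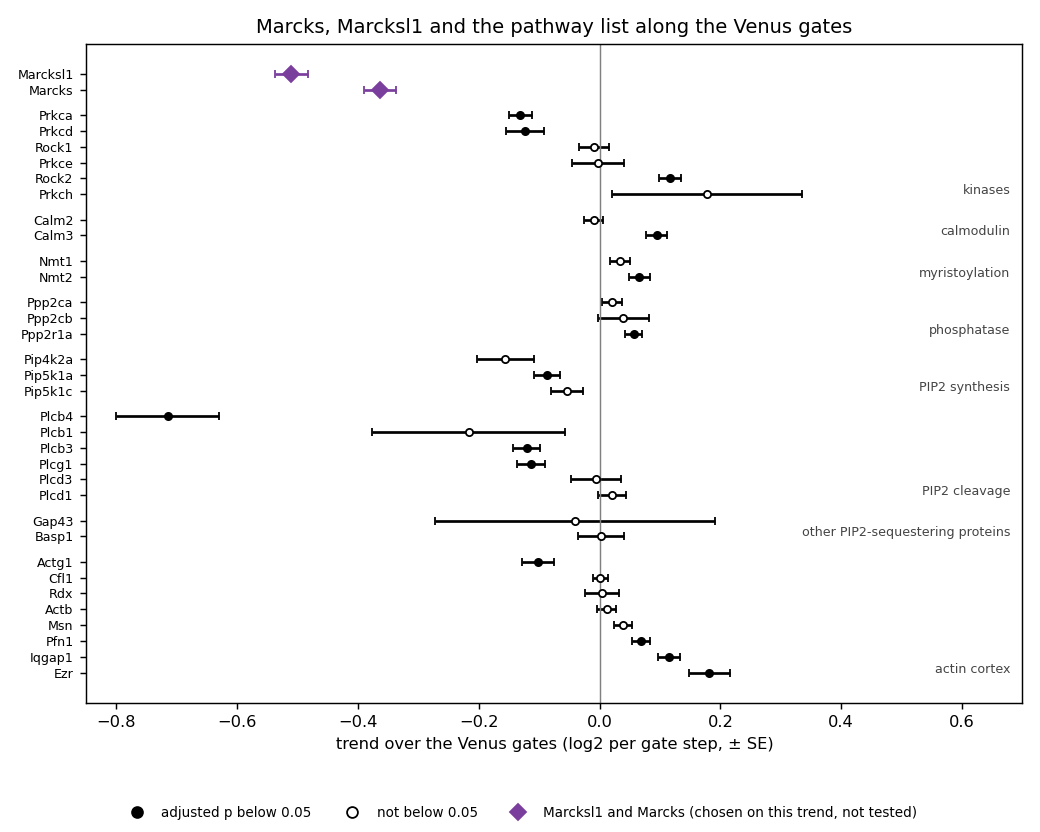
Trend over the Venus gates (log2 per gate step, with SE) of Marcksl1 and Marcks and of 32 of the 34 tested genes of the pathway list, grouped by role. Filled circles were called at an adjusted p below 0.05; apart from Plcb4 and the sparsely counted Plcb1, no plotted gene of the list lies below -0.16, while Marcksl1 stands at -0.51 and Marcks at -0.36.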

How the data were processed

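Raw counts per gene and cell were deposited by the authors as whole numbers. The submitters' processing notes name GRCm39 (mm39), STAR 2.7.11a, SAMtools, bedtools and HTSeq without roles; annotation, use of strand and molecular identifiers are not given in the sources used here. The authors deposited the sorter's intensity values of each cell (fluorescence, forward scatter; arbitrary units) as recorded at the sort, per the file headers; compensation is not given in the sources used here.

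Symbols were matched for 24902 of 33757 features; features without one held 1.07% of counts. Cells with at least 1000 genes, 0.1 of the plate median total and at most 25% mitochondrial counts were kept (762 of 768), with 151173 to 1618022 counts each. No doublet caller was run. Counts were summed per plate and gate, or per highest and lowest of 3 equal parts of their cells, and tested with edgeR 4.0.16 (R 4.3.3; TMM, filterByExpr, quasi-likelihood F-test, Benjamini-Hochberg over all genes, threshold 0.05), with DESeq2 1.42.0 as an alternative. The 8 blocks of a split come from 2 plates, so its p-values measure the spread among blocks, not among cultures. CPM are counts scaled to 1000000 of the summed or single-cell total. Scores are the mean log2(CPM + 1) over 43 S phase and 54 G2/M genes. Spearman correlations are per plate. In Python 3.11.15, scipy 1.17.1 gave Poisson intervals.

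The members and all lists were chosen with earlier results of these data known. Of the pathway list, 2 tested genes enter the counts and are not reported by name here. Named genes are the members, set clock and cell cycle genes, called or list-carrying pathway genes, and the 6 genes most and least like each member among those detected in most cells, leaving out predicted and mitochondrial genes. The fits were tested on simulated counts. Alternatives were library totals without TMM, DESeq2, no count filter, no plate term, a stricter cell filter, cells thinned to 400000 counts, 2 parts in place of 3, sums over gates, each plate alone and, added after seeing the data, cells low in both cycle scores.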

Additional observations from a re-analysis of the deposited data

How the results depend on the processing

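The Marcksl1 trend was -0.4933 without TMM and -0.4372 in cells low in both cycle scores, where that of Marcks was -0.3022. Under the other alternatives both stayed within the spread between the plates, and with 1 plate left out they ran from -0.5196 to -0.5022 and from -0.3903 to -0.3361. The 2843 genes called along the gates became 1683 with no replicate block (no plate term; the plate is the only replicate and the main fit has it as a term) and 487 in the low-cycle cells, and the 15 called genes of the pathway list became 7 and 1. For Marcksl1 between Dbp-high and Dbp-low cells, cutting the cells into 2 parts in place of 3 gave 0.3574 (adjusted p = 0.057, edgeR) and low-cycle cells 0.245 (adjusted p = 0.634, edgeR), and single plates gave 0.3838 to 0.6431. For Marcks between G2/M parts, single plates gave -0.4956 to -0.2843. The cause of these changes was not tested. Both members between S phase parts, and Marcksl1 between G2/M parts, were called under all 8 alternatives. Uncalled differences near 0 changed sign. Marcksl1 between Arntl parts gave 0.001588 with no count filter and 0.07164 with 2 parts, and single plates gave -0.01084 to 0.007543. Marcks between forward scatter parts gave 0.02519 with 2 parts, 0.01347 with thinned cells and 0.00786 over summed gates, with -0.06195 to 0.05997 on single plates. Marcksl1 gave -0.003807 to 0.1037 there on single plates. Between iRFP parts it gave 0.04348 with 2 parts and -0.1334 to 0.024 on single plates. Marcks gave -0.3379 between Arntl parts with thinned cells and -0.3043 to -0.06336 on single plates, and 0.06626 to 0.2082 between iRFP parts on single plates. Marcks between Dbp parts gave -0.0396 to 0.3421 on single plates. Ranking within gates moved mean correlations: for Marcks to 0.4782 with Marcksl1, -0.06942 with Arntl, 0.04903 with Dbp and -0.1855 with the S score, and for Marcksl1 to -0.01976 with Arntl and 0.2026 with Dbp. With thinned cells, Marcks against Arntl was 0.1145. Depth did not limit either member in the sums, which held 1937 to 10686 counts.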

Other observations

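Lama4 and Hdac2, the genes ranked 1st and 3rd by likeness to Marcks across cells, are also its nearest compared neighbours on chromosome 10. They lie on either side of it by start position in a RefSeq gene table, from which only chromosome and gene order were taken. Of the 20 compared genes nearest to Marcks, 19 correlated positively with it on both plates within gates (95.0%), among them Gtf3c6 (0.33 and 0.18), Tspyl1 (0.19 and 0.21) and the Src-family kinase gene Fyn (0.16 and 0.25), which were picked after their values were seen. The same held for 60.6% of the other 454 compared genes of chromosome 10 and for 37.7% of 8801 genes on other chromosomes. Around Marcksl1 on chromosome 4 it held for 8 of the 20 nearest genes (40.0%). The shares were 43.1% for the other 575 compared genes of that chromosome and 36.5% on other chromosomes. Its neighbour Hdac1 correlated with Marcksl1 at -0.002 and -0.02. Along the Venus gates Lama4 had a trend of -0.17 and Hdac2 one of -0.06, against -0.36 for Marcks. The correlations are over the same cells and are given without a test, and no cause of the difference between the 2 regions was tested.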
